A study of Gallus gallus with 9 samples.

Results

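Chicken preadipocytes, the committed precursors of fat cells, were compared after treatment with DMIOA, the labels' name for an adipogenic cocktail, and without treatment. The comparison used 6 of the 9 arrays of the study, 3 labelled as treated with DMIOA and 3 labelled as non-treated control, chosen by their titles. Both groups came from the adipose tissue of laying hens, were cultured with fetal bovine serum in DMEM and had reached confluence before treatment. The other 3 arrays, of cells given the same cocktail with 10 µM retinoic acid, entered the statistical fit to estimate the spread between replicates. They also counted in the filter on signal and in the choice of 1 probe set per gene. The titles of the 6 compared arrays end in a bracketed number that the labels do not explain, and those of the other 3 do not. The labels do not spell out the components of DMIOA, its dose or the time of harvest. They number biological replicates from 1 to 3 in each group without saying which hen or culture each came from, so the p-values measure only the spread between these samples, part of which may be technical.

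Preadipocytes are spindle-shaped stromal cells that lay down a collagen-rich matrix and keep a contractile actin skeleton. During adipogenesis, hormones and, in birds, added fatty acids start a program in which the receptor PPARG and the C/EBP factors switch on genes for lipid uptake and storage. TGF-beta signalling is known to restrain that program in mammalian preadipocytes. Confluent cells of some mammalian preadipocyte lines also divide again before they differentiate, a step called mitotic clonal expansion.

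Each array measured 37693 chicken probe sets, and between 30.9% and 31.2% of them reached a log2 value of 5 on each of the 6 arrays, the level used here as the lower limit of a measured signal. Levels are given as log2 GCRMA values and differences as DMIOA minus control on that log2 scale. The labelled cell type was checked against its markers. VIM, COL1A1, COL1A2, COL3A1, DCN, LUM and PDGFRB were above 5 on all 6 arrays, as is usual for stromal cells, while PDGFRA was below 5 on all of them. The mature adipocyte markers CEBPA, PLIN1 and ADIPOQ were below 5 in both groups, with and without DMIOA. The other defining adipocyte markers were measured in both groups. FABP4 lay between 9.57 and 12.96 and PPARG between 7.11 and 10.41 on the 6 arrays. LPL had 4.70, 5.04 and 7.50 in DMIOA replicates 1, 2 and 3 and 6.63, 6.73 and 8.18 in the control replicates. In both groups, replicate 3 alone carried high levels of leukocyte markers. CSF1R, a receptor of macrophages, had levels of 1.64, 1.57 and 9.42 in DMIOA replicates 1, 2 and 3, and of 1.69, 2.37 and 9.60 in the control replicates. The complement genes C1QA, C1QB and C1QC and the transcription factor gene SPI1 followed the same pattern, at no more than 2.44 in replicates 1 and 2 of both groups and at 7.88 or more in replicate 3. The 7 defining leukocyte markers summed to 17.4, 16.2 and 58.3 in DMIOA replicates 1, 2 and 3 and to 17.8, 20.4 and 66.7 in the control replicates. In bulk RNA, fewer cells of a type and less RNA per cell cannot be told apart. Markers of epithelium, nerve and red cells were below 5 on all 6 arrays for every defining gene that the array held. It held few of them, 3 of 7, 2 of 4 and 1 of 4. Among all members of these lists on the array, 4 or 5 of 20, 2 of 26 and 2 of 11 reached 5 on each array.

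Because replicate 3 stood apart in both groups, each DMIOA array was compared with the control array of the same number. The deviations of same-numbered arrays from their group means correlated at r = 0.730, 0.395 and 0.857 for replicates 1, 2 and 3. DMIOA replicate 1 with control replicate 2 gave 0.668, and DMIOA replicate 2 with control replicate 1 gave 0.321. The values set replicate 3 apart but cannot decide how replicates 1 and 2 pair. The size of the difference varied between the 3 pairs. DMIOA and control differed at least 2-fold in 509 of 12329 kept probe sets (4.13%) in pair 1, in 1340 (10.9%) in pair 2 and in 674 (5.47%) in pair 3. Across probe sets, which are not independent replicates, the differences of the pairs correlated at r = 0.524 between pairs 1 and 2, 0.479 between pairs 1 and 3 and 0.513 between pairs 2 and 3. In the scatter of the pair differences, called genes lie away from 0 in the same direction in every pair. The test favours such genes, so this adds no support for the calls. Among uncalled genes, 61 also differed at least 2-fold in the same direction in all 3 pairs.

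**Figure D1:**
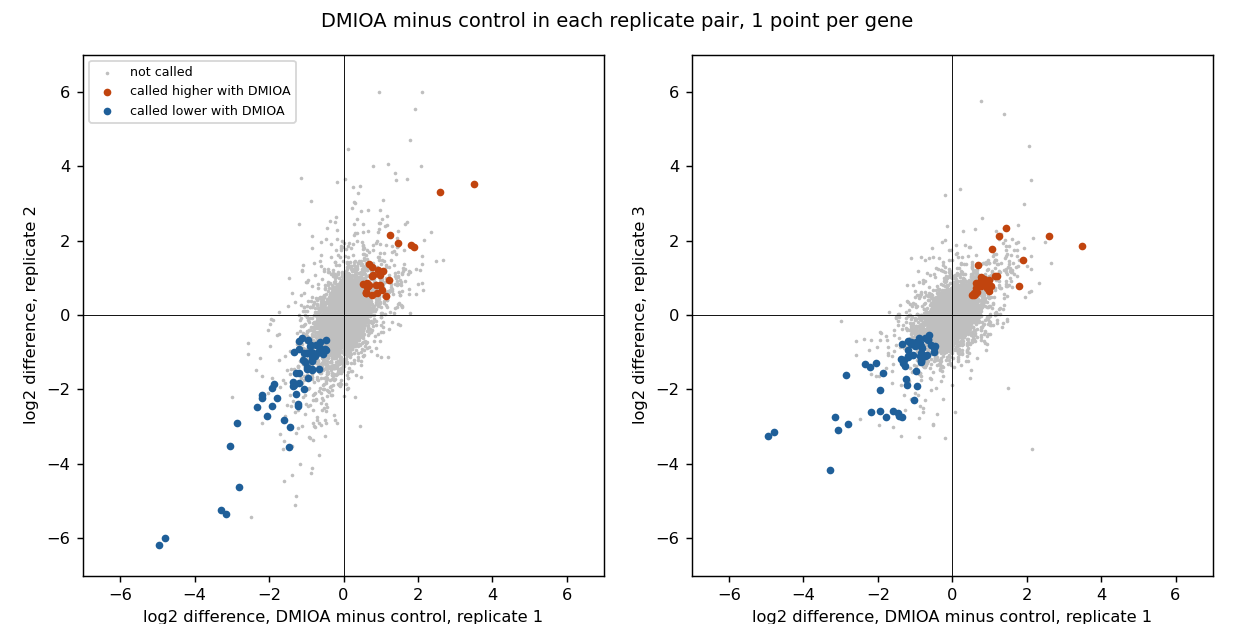
Log2 difference between DMIOA and control of each of 6945 genes in pair 2 (left, vertical axis) and pair 3 (right, vertical axis) against pair 1 (horizontal axis in both). Coloured points are the 28 genes called higher and the 61 genes called lower with DMIOA, which have the same sign in all 3 pairs.

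With the replicate number as a block, limma called 159 of 12329 kept probe sets between DMIOA and control (1.29%) at a Benjamini-Hochberg adjusted p under 0.05. Of these 61 were higher with DMIOA (0.495%) and 98 lower (0.795%), and 86 changed at least 2-fold, 20 higher and 66 lower. Taking 1 probe set per gene, 89 of 6945 genes were called (1.28%), 28 higher (0.403%) and 61 lower (0.878%). Counts over gene lists go by that probe set, the brightest of each gene, and 24 further genes (13 higher, 11 lower) were called on a dimmer probe set only. Their brightest probe set had the same sign in all 24 but did not pass the test. A gene could pass the filter on signal through 1 group alone, the group where it was high. List counts that hold such genes add no support for their direction. Apart from the lists given with a number of measured members, called genes were grouped after their values were seen. The 3 DMIOA values and the 3 control values did not overlap in 117 of the 159 probe sets. Over all genes they did not overlap in 8.87% with DMIOA higher and in 7.6% with DMIOA lower. The test favours groups that separate, so the 117 add no support for the calls. That count is of probe sets, while the shares are of genes. In all, 2608 probe sets had an unadjusted p under 0.05. Without the block 18 probe sets were called, all of them among the 159. These calls rest on few arrays. When any 1 of control replicate 1, control replicate 2, DMIOA replicate 2 and DMIOA replicate 3 was left out, limma called 0 probe sets. Unadjusted p was then under 0.05 for 1752, 1346, 2013 and 1838 of them. In those 4 settings the adjusted p of the 89 called genes ran from 0.0504 to 0.252. The count was 52 without control replicate 3 and 92 without DMIOA replicate 1. When the 6 arrays were fitted alone with the replicate block, limma called 0 (2347 at an unadjusted p under 0.05), with an adjusted p of 0.0670 to 0.124 for the 89 genes.

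Several genes of the extracellular matrix fell with DMIOA. BGN (gene ID 415954), which encodes the small proteoglycan biglycan, had 3.04, 2.06 and 4.53 in DMIOA replicates 1, 2 and 3, against 7.83, 8.05 and 7.66 in the control replicates. All DMIOA values lay below 5 and all control values above 7, so the groups did not overlap. The fall was at least 7.19-fold (adjusted p = 0.0358), and a second BGN probe set was called as well. POSTN (gene ID 395429), the matricellular protein periostin, had 12.03, 11.95 and 12.10 with DMIOA and 13.32, 13.52 and 13.32 in control. This abundant transcript varied little within either group, with pair differences of -1.29, -1.57 and -1.22 and a fitted fall of -1.36 ± 0.11 (SE, adjusted p = 0.0319). MFAP5 (gene ID 418256), a component of elastic microfibrils, had 9.32, 9.59 and 9.91 with DMIOA and 11.52, 11.73 and 11.29 in control, a difference of -1.91 ± 0.17. Both its probe sets were called. The microfibril gene FBN2, which encodes fibrillin 2, was called on its second probe set only, while the brighter one had -2.32 (adjusted p = 0.0931).

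CILP, a matrix protein first known from cartilage, had 3.71, 2.67 and 2.81 with DMIOA and 5.15, 5.69 and 5.52 in control, and was at least 1.37-fold lower. MXRA5, which encodes a large matrix proteoglycan, had 3.91, 3.18 and 3.91 against 5.84, 5.61 and 6.50 and was at least 1.98-fold lower (adjusted p = 0.0104). The sulfatase gene ARSH, the neighbour of MXRA5 among protein-coding genes of the RefSeq annotation, was at least 1.38-fold lower, and these 2 were the one pair of adjacent genes among the 89 called. CTHRC1, a secreted collagen-repeat protein made by activated fibroblasts in mammals, had 9.85, 9.53 and 8.72 with DMIOA and 10.81, 11.22 and 10.64 in control, a difference of -1.52 ± 0.20. The carboxypeptidase gene CPZ changed by -1.53 ± 0.23, and FAM20A, the partner of a kinase of the secretory pathway, by -1.31 ± 0.21.

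One collagen gene moved the other way. COL23A1 (gene ID 425481), which encodes a transmembrane collagen, had 7.48, 8.58 and 8.11 with DMIOA and 4.89, 5.28 and 5.98 in control, with no overlap between the groups. It was at least 6.21-fold higher (adjusted p = 0.0369). None of the other 17 measured collagen genes was called. COL1A1, the main fibrillar collagen gene, had 14.04, 14.25 and 14.29 with DMIOA and 14.19, 13.99 and 14.32 in control, so that the groups overlapped. COL11A1 had a difference of -1.04 (adjusted p = 0.0872), the proteoglycan gene LUM -0.98 (0.222) and the crosslinking enzyme gene LOXL1 0.62 (0.142).

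As lists, 4 of 34 non-collagen matrix genes were called, all lower (0.878% of all genes were called lower), and the list's median difference was -0.24, against 0.03 over all genes. Of these calls, BGN and CILP reached 5 in control only on the 6 arrays. The collagens had 1 of 18 called, COL23A1, which was higher (0.403% of all genes were called higher), and a median of -0.08. The 10 calls described with the matrix (BGN, POSTN, MFAP5, CILP, MXRA5 and its neighbour ARSH, CTHRC1, CPZ, FAM20A and COL23A1) had adjusted p from 0.0632 to 0.229 without control replicate 1, control replicate 2, DMIOA replicate 2 or DMIOA replicate 3. Without DMIOA replicate 1, 5 of them were called, and 5 without control replicate 3. Without the replicate block POSTN, MFAP5 and CILP were called and the others had adjusted p up to 0.537.

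**Figure D2:**
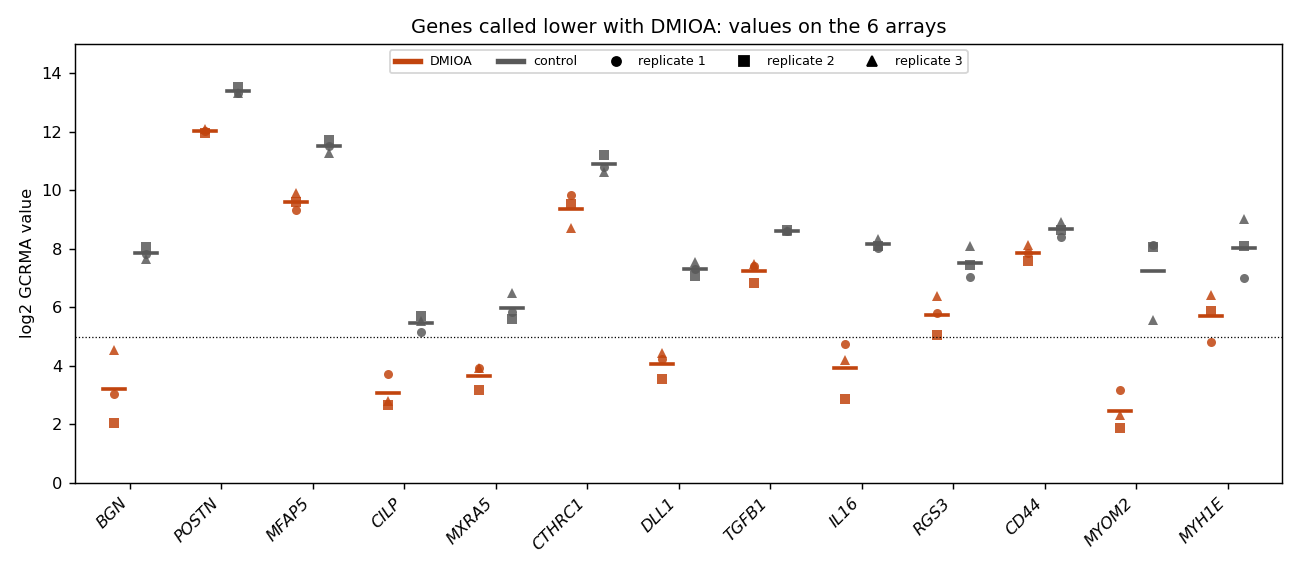
Log2 GCRMA values of 13 genes called lower with DMIOA on the 6 arrays, DMIOA left of control for each gene. Symbols mark the replicate number, horizontal bars the group mean and the dotted line a log2 value of 5. POSTN keeps to a narrow band in each group, whereas MYH1E shifts with replicate number in both groups. MYOM2 is lowest in replicate 3 in control, and its DMIOA values all lie under the dotted line.

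Genes of several signalling pathways were called, most of them lower with DMIOA. DLL1 (gene ID 395820), which encodes a ligand of the Notch receptors, had 4.24, 3.55 and 4.44 with DMIOA and 7.31, 7.08 and 7.53 in control. Every DMIOA value was below 5 and every control value above 7, and the difference was nearly the same in the 3 pairs (-3.06, -3.53 and -3.09). DLL1 was at least 4.95-fold lower, and with MXRA5 it had the smallest adjusted p among the called genes (0.0104). Other genes of the Notch pathway were lower without passing the test. The target gene HES4 had pair differences of -1.63, -3.59 and -1.82 (adjusted p = 0.0535), the fringe glycosyltransferase gene LFNG -0.89, -1.30 and -0.51 (0.0782), the receptor gene NOTCH1 -0.09, -1.14 and -1.09 (0.131) and the ligand gene JAG1 -0.50, -1.21 and -0.77 (0.0971). Of 11 measured Notch genes 6 were lower in all 3 pairs, and 19.7% of all genes were. DLL1 is 1 of these, and among the compared arrays it reached 5 in control only.

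TGFB1 (gene ID 100873157), which encodes the growth factor TGF-beta 1, had 7.42, 6.82 and 7.48 with DMIOA, against 8.62, 8.63 and 8.59 in control. The control values were nearly equal and above every DMIOA value, and the gene fell by 2.60-fold (-1.38 ± 0.21, adjusted p = 0.0470). It was the one call among 35 contractile and TGF-beta response genes (0.878% of all genes were called lower). In all 3 pairs 18 of them were lower and 3 higher, against 19.7% and 25.3% of all genes. Their median was -0.26, or -0.04, -0.49 and -0.14 in pairs 1, 2 and 3. ACTA2, the smooth muscle actin gene, had 8.48, 7.17 and 7.78 with DMIOA and 8.79, 8.80 and 8.66 in control (adjusted p = 0.168). INHBA, which encodes the activin A subunit, had pair differences of -0.82, -3.36 and -1.65 (adjusted p = 0.132). ACVR2B, an activin receptor gene, was called higher, at 5.96, 5.70 and 5.54 with DMIOA and 5.29, 4.89 and 4.72 in control (at least 1.56-fold).

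Among immune and secreted signals, IL16 (gene ID 374270), a cytokine that binds CD4, had 4.74, 2.86 and 4.18 with DMIOA and 8.02, 8.10 and 8.34 in control, and was at least 8.90-fold lower (adjusted p = 0.0328). NCF4, a subunit of the phagocyte NADPH oxidase, had 4.38, 2.19 and 2.92 with DMIOA and 7.19, 6.82 and 5.84 in control. The control values of IL16 and NCF4 were 6.82 or more in replicates 1 and 2, the arrays on which CSF1R and the C1Q genes were at 2.44 or less. PTPRC, the pan-leukocyte marker CD45, was at 4.74 and 5.80 on these arrays and had pair differences of -0.81, -2.90 and -1.21 (adjusted p = 0.0959). Of 19 measured leukocyte and macrophage genes 2 were called lower, against 0.878% of all genes. In all 3 pairs 7 were lower and 0 higher, against 19.7% and 25.3% of all genes. The median was -0.41, or -0.14, -0.26 and -1.01 in pairs 1, 2 and 3. The median level was 3.57 and 2.86 in DMIOA replicates 1 and 2 and 3.77 and 4.04 in control replicates 1 and 2. Those levels lie under 5, so the differences of many of these genes are uncertain in pairs 1 and 2. On the 6 arrays IL16 and NCF4 reached 5 in control only, so control alone, where they were high, met the filter on signal. The part of leukocyte RNA in these differences was not tested. RGS3, which shortens G-protein signals, fell by 3.44-fold on the brighter of its called probe sets. The NAD-consuming ectoenzyme gene CD38 was at least 1.57-fold lower, the receptor phosphatase gene PTPRQ at least 3.81-fold lower, and FNDC5, the irisin precursor gene, fell by 2.58-fold.

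Other cytokine and receptor genes differed between DMIOA and control without being called. IL6 had pair differences of -1.29, -4.86 and -2.14 (adjusted p = 0.117), with a second, dimmer probe set at -0.10. The growth factor gene MDK had -2.04, -2.09 and -1.64 (0.0734). The interleukin 1 family receptor genes IL1RL1 and IL1R1 were higher, with pair differences of 1.17, 2.42 and 2.27 (0.0583) and 0.49, 1.96 and 1.84 (0.0971). IL1RAP, their co-receptor, was called higher on a dimmer probe set (1.58, adjusted p = 0.0477), while its brightest had 0.70 (0.199). The 9 signalling calls (DLL1, TGFB1, IL16, NCF4, RGS3, CD38, FNDC5, PTPRQ and ACVR2B) had adjusted p from 0.0504 to 0.238 without control replicate 1, control replicate 2, DMIOA replicate 2 or DMIOA replicate 3. Without DMIOA replicate 1, 4 of them were called, and 1 without control replicate 3. DLL1 and IL16 were called without the replicate block, and the other 7 had adjusted p up to 0.269 there.

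Several called genes act in cell adhesion or the cytoskeleton. Of the 11 described here 10 were lower with DMIOA and DOCK1 was higher. CD44, the hyaluronan receptor gene, had 7.85, 7.58 and 8.13 with DMIOA and 8.41, 8.64 and 8.92 in control (difference -0.80 ± 0.12, adjusted p = 0.0437). ARPC1B, a subunit of the actin-nucleating Arp2/3 complex, had 9.21, 8.96 and 9.33 with DMIOA and 10.06, 10.05 and 10.34 in control, with no overlap, and changed by -0.98 ± 0.11. Each of its probe sets was called. The membrane-to-actin linker gene EZR changed by -0.77, the Rac and Cdc42 activator gene ARHGEF6 by -0.64 and SEPTIN8, a cytoskeletal GTPase gene, by -0.99. RFLNB, which encodes a filamin-binding protein, had 9.29, 8.80 and 9.66 with DMIOA and 10.66, 10.70 and 10.84 in control (-1.48 ± 0.16). KALRN was at least 2.70-fold lower. DOCK1, also a Rac activator, was called higher (0.91) on its brighter probe set, with the other at 0.15.

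The cell surface genes PECAM1 and NINJ2 and the keratin gene KRT14 were at least 2.99-fold, at least 3.96-fold and at least 1.26-fold lower. PECAM1 is a marker of endothelium, and CDH5, which defines the same cell type, was not lower, with 8.98, 8.64 and 10.93 with DMIOA and 7.82, 8.22 and 10.92 in control (adjusted p = 0.249). KDR, TEK and VWF were below 5 on all 6 arrays. ANKRD1, a target gene of the mechanosensitive YAP pathway in mammals, was called on its dimmer probe set, while the brighter one had pair differences of -1.59, -4.47 and -3.00 (adjusted p = 0.0629). PTK2, the focal adhesion kinase gene, was likewise called lower on a pair of dimmer probe sets (-0.81 and -0.74), with the brightest at -0.67 (0.0548).

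Of 27 integrin, cadherin and claudin genes none was called on its brightest probe set, 17 were lower in all 3 pairs and 2 higher in all 3, against 19.7% and 25.3% of all genes. Their median was -0.41. The integrin gene ITGA11 was called lower on a dimmer probe set (-1.21, adjusted p = 0.0330), and its brightest had -1.02 (0.248). ITGA4 had -0.85 (adjusted p = 0.0958) and the protocadherin-like gene FAT1 -0.58 (0.0610). Of 27 guidance genes, which include slits, netrins and semaphorins, none was called and the median was -0.31, with SLIT2 at -1.41 (0.135). The 11 adhesion and cytoskeleton calls (CD44, EZR, ARPC1B, ARHGEF6, KALRN, RFLNB, SEPTIN8, DOCK1, KRT14, PECAM1 and NINJ2) had adjusted p from 0.0632 to 0.238 without control replicate 1, control replicate 2, DMIOA replicate 2 or DMIOA replicate 3. Without DMIOA replicate 1 and without control replicate 3, 3 and 1 of them were called. KRT14 was the one called without the replicate block, where the highest adjusted p of the 11 was 0.425.

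A pair of sarcomere genes was called lower. MYOM2 (gene ID 396034), which encodes a myomesin of the sarcomere M band, had 3.17, 1.89 and 2.31 with DMIOA and 8.13, 8.07 and 5.56 in control. The lowest control value was that of replicate 3, still above every DMIOA value, and the gene was at least 4.77-fold lower (adjusted p = 0.0331). MYH1E, a skeletal myosin heavy chain gene, had 4.83, 5.86 and 6.43 with DMIOA and 7.02, 8.09 and 9.03 in control, and was at least 4.86-fold lower. It belongs to a cluster of near-identical myosin genes, so its probe set may also have measured others. A second probe set of MYH1E had a difference of -2.43 and was not called (adjusted p = 0.0524). It was the dimmer one over the 9 arrays but the brighter one over the 6 compared arrays. Its values were 5.16, 5.80 and 6.43 with DMIOA and 6.86, 8.65 and 9.16 in control. The defining muscle markers DES, TTN, MYOD1 and MYOG were at 2.67 or less on all 6 arrays.

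Channel genes were called in both directions. NALCN, a sodium leak channel gene, had 5.99, 5.79 and 6.88 with DMIOA and 8.04, 8.52 and 8.17 in control, a fall of 4.06-fold. KCNMA1, the calcium-activated potassium channel gene, averaged 7.46 ± 0.63 with DMIOA and 8.28 ± 0.59 in control (SD, n = 3 each), with groups that overlapped through replicate 3 and pair differences of -0.88, -0.81 and -0.76 (adjusted p = 0.0331). KCNE4, a regulatory subunit of potassium channels, was higher on a dimmer probe set, with 8.21, 8.22 and 8.75 with DMIOA and 6.63, 6.94 and 6.53 in control (1.69, adjusted p = 0.0395). Its brightest probe set had 0.99 (0.0610). The calcium release channel gene ITPR3 was at least 1.71-fold lower and JPH3, which tethers the endoplasmic reticulum to the plasma membrane, changed by -1.18. The carbonic anhydrase gene CA3B was at least 3.99-fold lower, and PHKA2, a regulatory subunit of phosphorylase kinase, at least 1.79-fold lower.

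Of 10 skeletal muscle genes that passed the filter on signal, MYOM2 and MYH1E were called, both lower. On the 6 arrays MYOM2 reached 5 in control only. In all 3 pairs 7 of the 10 genes were lower and 2 higher, against 19.7% and 25.3% of all genes, of which 0.878% were called lower. MYH15 had -0.44 (adjusted p = 0.263) and the transcription factor gene MEF2D -0.57 (0.0591). DOK7, an adaptor of the neuromuscular junction in mammals, had pair differences of -2.48, -5.44 and -2.79 and an adjusted p of 0.0547. Without control replicate 1, control replicate 2, DMIOA replicate 2 or DMIOA replicate 3, the 8 calls among muscle and channel genes (MYOM2, MYH1E, NALCN, KCNMA1, ITPR3, JPH3, CA3B and PHKA2) had adjusted p from 0.0993 to 0.214. Of the 8, 3 were called without DMIOA replicate 1 and 5 without control replicate 3. None was called without the replicate block, with adjusted p from 0.0591 to 0.536.

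The rises included enzymes of lipid metabolism. ACADS (gene ID 416969), the short-chain acyl-CoA dehydrogenase of mitochondrial beta-oxidation, had 9.14, 8.90 and 8.95 with DMIOA and 7.93, 7.96 and 7.91 in control. Both groups were tight and did not overlap, and the gene rose 2.09-fold (1.06 ± 0.11, adjusted p = 0.0330). MID1IP1, which activates acetyl-CoA carboxylase in fatty acid synthesis, had 8.33, 8.15 and 8.38 with DMIOA and 7.35, 7.34 and 7.44 in control, a rise of 1.88-fold. HSD17B7, which also acts in cholesterol synthesis, had 9.18, 9.71 and 10.54 with DMIOA and 7.37, 7.83 and 9.76 in control. The highest control value, that of replicate 3, exceeded the DMIOA values of replicates 1 and 2, so the groups overlapped, and the difference of 1.49 ± 0.24 (adjusted p = 0.0484) rests on the pairing. LDAH, a lipid droplet hydrolase gene, was called on its brightest probe set (0.74), while a dimmer one had -0.05. The oxysterol-producing enzyme gene CH25H was at least 3.07-fold lower.

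**Figure D3:**
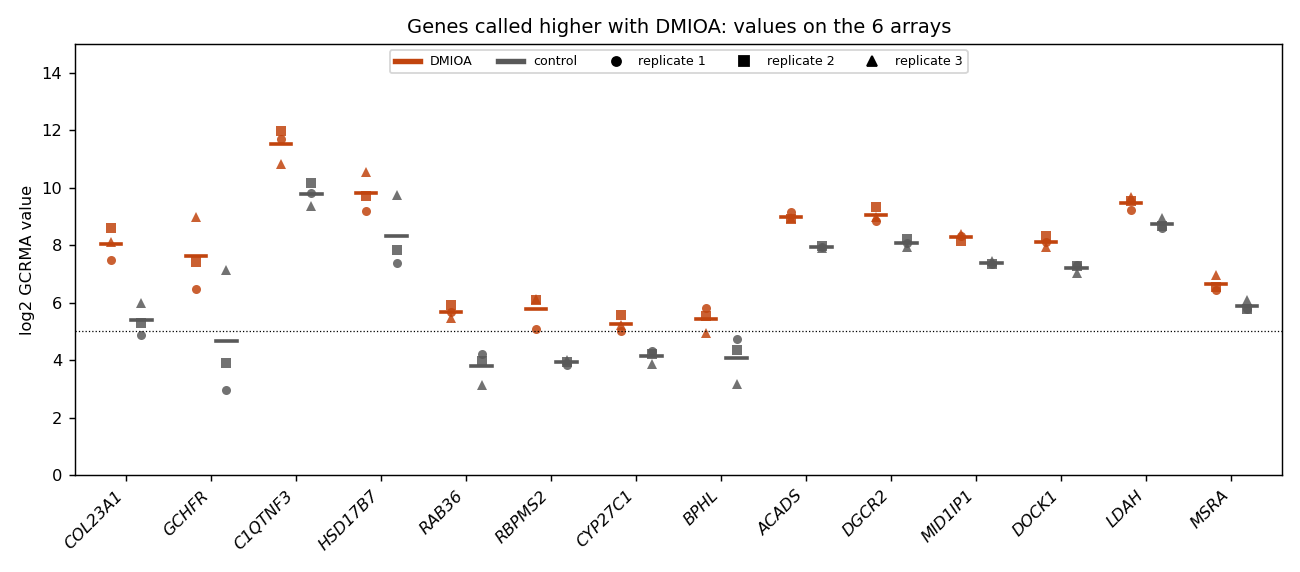
Log2 GCRMA values of 14 genes called higher with DMIOA on the 6 arrays, DMIOA left of control for each gene. Symbols mark the replicate number, horizontal bars the group mean and the dotted line a log2 value of 5. ACADS and MID1IP1 separate cleanly, whereas GCHFR and HSD17B7 are highest in replicate 3 of both groups.

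Other called genes encode mitochondrial proteins and enzymes. The mitochondrial release factor gene C12orf65 had 10.30, 10.48 and 10.06 with DMIOA and 9.32, 9.41 and 9.41 in control (0.90 ± 0.12), and 2 of its 3 probe sets were called. The mitochondrial ribosomal gene MRPS10 changed by 0.58 and APOPT1, linked to cytochrome oxidase assembly, by 0.60. In both, replicate 3 of either group lay below replicates 1 and 2. LARS2, the mitochondrial leucyl-tRNA synthetase gene, was lower (-0.91, adjusted p = 0.0330). BPHL, a serine hydrolase gene, and CYP27C1, which desaturates retinol in fish and humans, were at least 1.35-fold and at least 1.21-fold higher. MSRA, which repairs oxidised methionine, changed by 0.75 ± 0.09.

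Of 17 fatty acid oxidation and lipolysis genes ACADS was called (0.403% of all genes were called higher). In all 3 pairs 8 were higher and 3 lower, against 25.3% and 19.7% of all genes, with a median of 0.33. The electron transfer gene ETFDH had 0.58 (adjusted p = 0.0798) and HADHB of the trifunctional protein 0.45 (0.125). Of 17 cholesterol genes HSD17B7 was called. Their median was 0.78, 0.96 and -0.16 in pairs 1, 2 and 3, so pair 3 did not share the higher levels of the others. MVK, the mevalonate kinase gene, had 1.46, 2.25 and 0.52 in the 3 pairs (0.111). Of 16 fatty acid and triglyceride synthesis genes MID1IP1 was called, 4 were higher and 6 lower in all 3 pairs, and the median was -0.05. FASN had 0.75, 1.33 and 0.15 (0.158) and the elongase gene ELOVL6 1.28, 0.84 and 0.19 (0.114).

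For the 11 calls among lipid, mitochondrial and oxidoreductase genes (ACADS, MID1IP1, HSD17B7, LDAH, CH25H, C12orf65, MRPS10, APOPT1, BPHL, CYP27C1 and MSRA), adjusted p ran from 0.0934 to 0.251 without control replicate 1, control replicate 2, DMIOA replicate 2 or DMIOA replicate 3. Without DMIOA replicate 1, 3 of them were called, and without control replicate 3, 1. ACADS and MID1IP1 were called without the replicate block as well, and the adjusted p of the others reached 0.810.

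Among called genes the rise with the highest fitted value was that of GCHFR (gene ID 423003), the feedback regulator of tetrahydrobiopterin synthesis. It had 6.48, 7.43 and 8.99 with DMIOA and 2.98, 3.91 and 7.14 in control. Control replicate 3 lay above DMIOA replicate 1, so the groups overlapped, but each DMIOA array exceeded its own control and the gene was at least 3.78-fold higher (adjusted p = 0.0377). C1QTNF3, a secreted relative of adiponectin, had 11.70, 11.98 and 10.83 with DMIOA and 9.81, 10.16 and 9.36 in control, a rise of 3.31-fold. The vesicle-traffic GTPase gene RAB36 and the RNA-binding protein gene RBPMS2 were at least 1.61-fold and at least 1.71-fold higher, both with all control values below 5. RPL22L1, a ribosomal protein paralogue, changed by 0.95 ± 0.14, and the membrane protein gene DGCR2 by 0.96 ± 0.10. OIT3, known from mammalian liver, was at least 1.89-fold higher. On the other side, GCG, which encodes proglucagon, had 7.33, 7.95 and 6.67 with DMIOA and 8.65, 8.93 and 7.96 in control (-1.20 ± 0.15), and the endocytic adaptor gene STON2 was at least 2.21-fold lower. These 9 calls (GCHFR, C1QTNF3, RAB36, RBPMS2, RPL22L1, DGCR2, OIT3, GCG and STON2) had adjusted p from 0.0993 to 0.245 without control replicate 1, control replicate 2, DMIOA replicate 2 or DMIOA replicate 3. Without DMIOA replicate 1 and without control replicate 3, 3 and 3 were called. None was called without the replicate block (adjusted p 0.0572 to 0.420). Of the called genes, 25 are not described by name, of which 7 had rises of 0.59 to 0.90 and 18 had differences of -1.15 to -0.66.

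Enzymes of purine and amino acid metabolism were called one by one. ADA, the adenosine deaminase gene, had 6.47, 6.20 and 6.15 with DMIOA and 7.31, 7.43 and 7.39 in control, with no overlap (-1.10 ± 0.12, adjusted p = 0.0335). GLDC, of the glycine cleavage system, was at least 1.54-fold lower. GPT2, the mitochondrial alanine transaminase gene, had 8.25, 7.63 and 6.94 with DMIOA and 9.02, 8.74 and 8.04 in control (-0.99 ± 0.13), with pair differences of -0.77, -1.11 and -1.10 and replicate 3 the lowest in both groups. The folate enzyme gene MTHFS changed by -0.92. GART, of purine synthesis, had -0.73 (adjusted p = 0.0583). Over 28 nucleotide genes the median was -0.05 with 1 call, and over 39 amino acid and one-carbon genes it was 0.07 with 3 calls (GCHFR higher, GLDC and GPT2 lower). Of all genes, 0.403% were called higher and 0.878% lower. HPRT1, of purine salvage, was called lower on a dimmer probe set (-0.82), with the brightest at -0.68 (0.0983). The 5 calls (ADA, GLDC, GPT2, LARS2 and MTHFS) had adjusted p from 0.0993 to 0.203 without control replicate 1, control replicate 2, DMIOA replicate 2 or DMIOA replicate 3. Without DMIOA replicate 1, 3 were called, and without control replicate 3, 0. ADA was called without the replicate block, and the other 4 had adjusted p up to 0.515.

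Many wide differences between DMIOA and control were not called, and their size varied between the pairs. Of 94 genes that differed at least 2-fold in the same direction in all 3 pairs, 61 were not called. These genes were chosen after their values were seen. CIDEC, which promotes the growth of lipid droplets, had pair differences of 2.11, 5.99 and 3.63 (adjusted p = 0.0732). PDK4, the kinase that shuts off pyruvate oxidation, had 8.57, 10.60 and 9.34 with DMIOA and 6.49, 6.60 and 4.79 in control (adjusted p = 0.0998), and every DMIOA value was above every control value. GPD1L2, a gene named after glycerol-3-phosphate dehydrogenase, had 4.41, 7.19 and 9.52 with DMIOA and 3.02, 3.36 and 4.11 in control (0.111). The lipoprotein gene APOA1, which birds express in many tissues, had pair differences of 1.78, 4.71 and 2.43 (0.0897), the complement gene C7 1.92, 5.54 and 2.99 (0.0929) and the secreted protein gene NELL2 1.70, 3.65 and 1.94 (0.0691). In C7, APOA1, NELL2 and CIDEC pair 2 had the widest difference, and in PDK4 and GPD1L2 pair 3. All control values of CIDEC lay under 5, and CIDEC was at least 6.60-fold higher. In pair 1, C7 (4.99 with DMIOA, 3.07 in control) and GPD1L2 lay under 5 in both groups, so their differences there are uncertain. C7 was at least 4.96-fold and GPD1L2 at least 4.11-fold higher.

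No adipocyte marker was called among 14 measured. Of all genes 1.28% were called, so 0 calls in a list this short say little about its members. In all 3 pairs 6 of the 14 were higher and 2 lower, against 25.3% and 19.7% of all genes. Their medians in pairs 1, 2 and 3 were -0.05, 0.63 and 0.76. The fatty acid carrier gene FABP4 had pair differences of 0.22, 2.87 and 3.39 (adjusted p = 0.403), near 0 in pair 1 and wide in pairs 2 and 3. The lipid droplet coat gene PLIN2 had 0.62, 1.50 and 2.31 (0.140) and the preadipocyte factor gene ZNF423 0.35, 1.98 and 1.90 (0.112). LPL, which encodes lipoprotein lipase, was lower in every pair (-1.93, -1.69 and -0.67) and missed the threshold at an adjusted p of 0.0524. PPARG differed in sign between pairs (-0.78, -1.21 and 0.93, adjusted p = 0.687). Of glucocorticoid response genes FKBP5 had 0.53, 2.44 and 1.26 (0.108) and KLF9 -1.50, 0.24 and -0.08 (0.485), and 0 of 12 were called. In all 3 pairs 5 of these 12 were higher and 1 lower, and of the cAMP response genes 2 and 2. Of 13 cAMP response genes 0 were called either, with PDE4B at 0.27, -0.45 and -0.28 (0.672) and PDE4D at no more than 4.86 on these arrays.

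Genes with 1 pair apart from the others were picked by how far that pair lay from the mean of the other pairs, as a description with no test of that contrast. CHRDL2, a BMP-binding protein gene, stood at 3.32, 8.74 and 2.75 with DMIOA and 2.35, 2.74 and 2.52 in control, so that it was above 5 in DMIOA replicate 2 only. The gene WFDC1 and the GTPase gene RASL11A had their widest difference in pair 2 as well (-1.13, 3.67 and 0.30 and 0.12, 4.46 and 1.67). DIO2, which converts thyroid hormone to its active form, had 8.03, 4.28 and 7.73 with DMIOA and 9.34, 9.38 and 8.62 in control, lowest in DMIOA replicate 2. CYP3A5, a drug-metabolising enzyme gene, had 3.02, 2.66 and 8.76 with DMIOA and 2.24, 2.36 and 3.01 in control, and was above 5 in DMIOA replicate 3 only. In pair 3 the interferon-induced gene IFIT5, the antigen presentation gene CD74 and the cytokine receptor gene IL2RG were lower, with pair differences of 2.14, 0.67 and -3.59, -0.20, -0.11 and -3.31 and 0.08, -0.12 and -2.59 in pairs 1, 2 and 3. The summed leukocyte markers given above were lower in DMIOA replicate 3 than in control replicate 3, and their part in these differences was not tested.

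**Figure D4:**
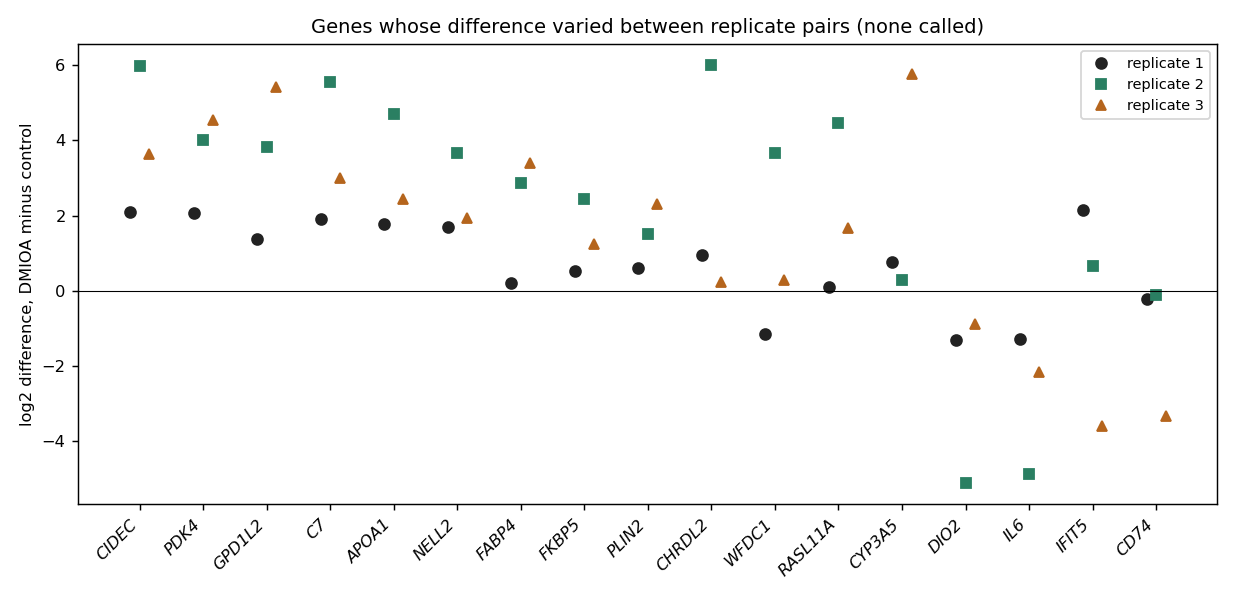
Log2 difference between DMIOA and control in each of the 3 replicate pairs for 17 genes that were not called. CIDEC, PDK4, GPD1L2, C7, APOA1 and NELL2 are above 0 in every pair by amounts that vary, CHRDL2 is far above 0 in pair 2 alone and CYP3A5 in pair 3 alone. The pair 1 differences of GPD1L2 and C7 come from levels under 5 in both groups and are uncertain.

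Most measured genes of the cell cycle list were higher in all 3 pairs, and none of them passed the test on its own. Of 59 cell cycle and mitosis genes 46 were higher in every pair and 3 lower in every pair, where 25.3% and 19.7% of all genes were. The median difference was 1.03, or 1.18, 0.66 and 1.18 in pairs 1, 2 and 3, against 0.03 over all genes. On the 6 arrays CKS2 and SGO1 reached 5 with DMIOA only, and counts that hold such genes add no support for their direction. TYMS, MCM5 and E2F8 lay under 5 in replicates 1 and 2 of both groups, so their differences in pairs 1 and 2 are uncertain. CDC20, an activator of the anaphase-promoting complex, had 8.32, 7.91 and 9.60 with DMIOA and 6.39, 6.68 and 7.80 in control (adjusted p = 0.142). Every DMIOA value exceeded every control value. MKI67, the proliferation marker Ki-67, had 7.02, 7.24 and 9.22 with DMIOA and 5.27, 6.07 and 8.17 in control (0.226). Control replicate 3 lay above DMIOA replicates 1 and 2, so these groups overlapped. CDC26, a subunit of the anaphase-promoting complex outside the list, was called higher, at 8.19, 8.20 and 5.70 with DMIOA and 7.54, 7.43 and 5.07 in control (0.69 ± 0.09, adjusted p = 0.0377). Replicate 3 was the lowest in both groups, which overlapped.

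Further mitotic genes had like differences. The mitotic kinesin gene KIF20A had pair differences of 2.11, 1.58 and 1.58 (adjusted p = 0.165), the condensin gene SMC2 1.71, 2.51 and 1.30 (0.185) and CKS2, a subunit of cyclin-dependent kinases, 2.49, 1.45 and 1.96 (0.158). The centromere genes CENPL and MIS12 had 2.66, 1.48 and 1.39 (0.148) and 2.16, 2.01 and 2.08 (0.153). CKS2, CENPL and MIS12 had control values under 5, and were at least 1.36-fold, at least 1.73-fold and at least 1.36-fold higher. For MIS12, replicates 1 and 2 lay under 5 in both groups, so its differences in pairs 1 and 2 are uncertain. Of 29 DNA replication genes 23 were higher in all 3 pairs and 0 lower, with a median of 0.49. The limits given above for genes under 5 hold for this count as well. Among genes of nucleotide supply for replication, RRM2 had 1.64, 2.46 and 1.40 (0.191), TK1 1.62, 1.75 and 1.15 (0.185) and DTYMK 0.45, 0.76 and 0.59 (0.0988). The G1 cyclin gene CCND1 did not share this direction, with 11.48, 10.70 and 11.17 with DMIOA and 11.21, 11.26 and 10.96 in control (0.951).

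**Figure D5:**
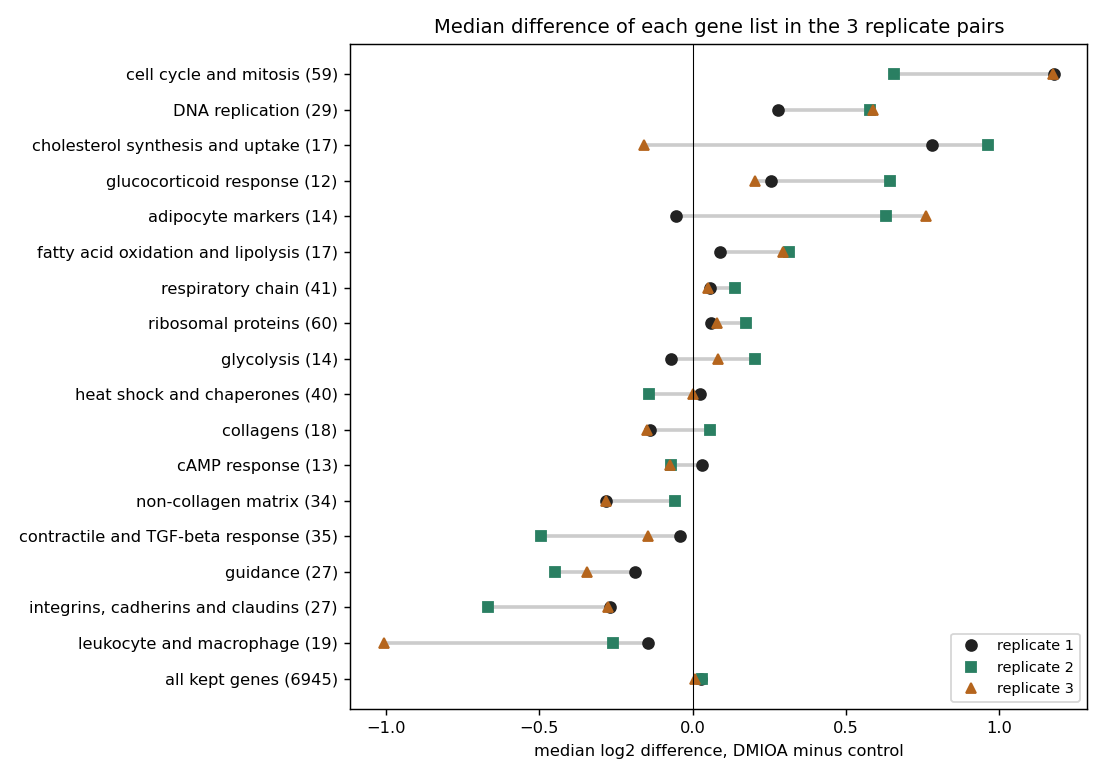
Median log2 difference between DMIOA and control of 17 gene lists and of all genes in each of the 3 replicate pairs, with the number of measured genes in brackets. Cell cycle genes have medians of 1.18, 0.66 and 1.18 in pairs 1, 2 and 3, and cholesterol genes lie above 0 in pairs 1 and 2 only.

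Lists of housekeeping genes had medians near 0. Of 60 ribosomal protein genes 41 were higher in all 3 pairs (25.3% of all genes were), but the median was 0.10 and none was called on its brightest probe set. RPL21 was called higher on a pair of dimmer probe sets (1.44 and 1.46) and RPL9 on 1 (0.70), while their brightest had 0.15 (adjusted p = 0.362) and 0.03 (0.866). The respiratory chain list had a median of 0.09 over 41 genes, the citric acid cycle 0.09 over 17, glycolysis 0.02 over 14 and the proteasome 0.05 over 33, each with 0 calls. Of all genes 1.28% were called, so 0 calls in lists of this size say little about their members. In all 3 pairs 17 respiratory chain genes were higher and 3 lower, against 25.3% and 19.7% of all genes. For the citric acid cycle these counts were 7 and 1, for glycolysis 3 and 0 and for the proteasome 5 and 3. Chaperones, ER stress and lysosome genes had medians of -0.05, 0.01 and -0.01, also with 0 calls. On the brightest probe sets the smallest adjusted p of any member of these lists was 0.0617. It was that of the small heat shock gene HSPB1, which had a difference of -0.67.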

How the data were processed

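Expression was measured in RNA of 9 cultures on 1-colour Affymetrix chicken arrays with 38535 probe sets. The deposited table holds 1 log2 value per probe set and array. Per the submitters' processing notes, the authors used GCRMA, whose version and settings the sources used here do not state. GCRMA corrects background by probe sequence and places dim probe sets near a common low value, so differences at low levels are uncertain. That the scale is log2 follows from the range, 0.362 to 15.0. The number of arrays limits the precision.

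Probe sets were named from the platform annotation: 27178 had 1 gene symbol, 177 several and 11180 none. No coordinates are given, since no genome build is tied to the probe sets in the sources used here. A chicken probe set was kept where 3 or more of the 9 arrays reached 5 (12329, of which 10243 had 1 symbol, for 6945 genes). The probe set with the highest mean over the 9 arrays stood for a gene with several. The 9 arrays were fitted with lmFit and eBayes of limma 3.58.1 under R 4.3.3, with a mean per group and the replicate number as a fixed block, leaving 4 residual degrees of freedom, and the Benjamini-Hochberg adjustment ran over the 12329 probe sets. A probe set was called at an adjusted p under 0.05. A fold written "at least" had an array of the dimmer group under 5, and those values were raised to 5 before the fold was taken.

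Pairing comes from the replicate numbers in the labels. Over the 9 same-numbered pairs of arrays from different groups, the correlation of their deviations from group means was 0.375 to 0.857. Between replicates 1 and 2 of DMIOA and control, the crossed pairs correlated at 0.668 and 0.321. With replicate 3 apart in both groups, replicates 1 and 2 deviate alike, so these correlations cannot decide how they pair.

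The members, the 50 gene lists, the fit and the naming rule were chosen with earlier results of these data known, so agreement with them is no independent support. The rule named the 25 called genes with the largest rises and the 25 with the largest falls, every called list member with up to 4 more members of each list by p, genes called with and without the block, the 6 highest and 6 lowest genes of each pair against the others, and a fixed set of adipocyte and hormone response genes. Of that set TSC22D3 was not matched to a probe set with 1 symbol, and some other items are not reported here. Other called genes and the genes that differed at least 2-fold in all pairs were chosen after their values were seen. The fit was tested on simulated data, with real replicate effects and 200 changed among 12329 probe sets: 60.0% of the 2-fold and 90.1% of the 4-fold changes were called in the blocked fit, where 4.98% of calls were false. Without the block these were 32.7%, 74.4% and 0.363%. All these rates describe the simulated data only. In the fit with array weights, the weights of the 6 real arrays ran from 0.264 to 3.61. How such uneven precision, or leaving out an array, changes the rates was not tested.

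Alternatives covered the filter, centring, cyclic loess, the prior, array weights, a random block, no block, the 6 arrays alone, the probe set standing for a gene and leaving out each array or pair. Array controls, reporters and probe sets of other sequences were left out of the tests.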

Additional observations from a re-analysis of the deposited data

How the results depend on the processing

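The count of 159 called probe sets depended most on the arrays and on the block. Without the replicate block, 18 were called, and with the 6 arrays alone with the replicate block, 0 (2347 at an unadjusted p under 0.05 in limma). With array weights and the replicate block 104 were called. Of the 159, 86 passed a threshold of at least 2-fold. Leaving out 1 array gave 0 to 92 calls, and leaving out a replicate number from every group 0 calls each time (1817, 1271 and 2472 at an unadjusted p under 0.05 without replicates 1, 2 and 3). Without the block and without 1 array, a setting added after seeing the data, limma called 39, 0 and 5 when DMIOA replicate 1, 2 or 3 was left out and 0, 0 and 13 when control replicate 1, 2 or 3 was. The 3 zeros had 1092 (DMIOA replicate 2), 983 and 831 probe sets with unadjusted p below 0.05. A fit of the first 2 replicate numbers of each group with no block, also added later, called 172. Each smaller set of arrays leaves fewer residual degrees of freedom. Filters at 5 on the 6 arrays, at 7 and with none gave 200, 117 and 143, median centring 166, a robust prior with an intensity trend 178, cyclic loess 167 and a random block 227. Median centring moved the median of all probe sets by 0.0071 and cyclic loess by -0.020.

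Of the genes given with values, 119 were followed through these alternatives. The genes picked for 1 pair apart from the others were not among the 119. Of the 119, 5 uncalled ones changed sign, and the cause was not tested. With array weights COL1A1 had -0.011 and CCND1 0.00651, and CCND1 had 0.029 as the mean of its probe sets. Leaving out an array or a replicate number gave COL1A1 -0.090 to 0.11, CCND1 -0.19 to 0.24, PPARG -1.0 to 0.079, KLF9 -0.79 to 0.076 and PDE4B -0.39 to 0.00613. How far a signal stood over background was judged from its log2 level alone, since no scanner file was used, and 64 of the 159 calls have a value under 5 in the dimmer group.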
